A study of Mus musculus with 12 samples.

Results

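The genes described here encode structural parts of the axoneme and of the sperm tail around it. They were chosen by symbol: every gene whose symbol starts with Dnah, Dnaic, Dnai, Dnali, Dnal, Cfap, Tekt, Rsph or Odf, together with Akap3 and Akap4. The rule found 73 of the 20718 genes in the table: 15 dynein heavy chains, 5 dynein intermediate and light chains, 31 cilia and flagella associated proteins (CFAP), 7 radial spoke proteins, 5 tektins, 8 outer dense fibre genes and 2 A-kinase anchoring proteins. RNA was sequenced from testes of F0 mice, strain given as IRC mouse, in 4 groups of 3 libraries each. In the group 8276OV a virus overexpressed lncRNA8276. In the group 8276KD a virus knocked lncRNA8276 down. The groups 5NC and 3NC were taken as the controls of 8276OV and of 8276KD, a match inferred from how the submitters list the groups, since their names are not spelled out. Age, the viral vector and promoter, the cells that took up the virus, and whether the 3 libraries of a group are separate animals were not stated. P-values therefore measure the spread between these libraries, which may be partly technical. lncRNA8276 itself was not analysed here, so neither the overexpression nor the knockdown was checked.

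A motile cilium or sperm tail is built on an axoneme, a ring of microtubule doublets around a central pair. Dynein arms on each doublet walk along the next one and bend the tail, radial spokes carry signals between the central pair and the arms, and tektins run as filaments inside the doublet wall. In sperm, outer dense fibres and a fibrous sheath surround this core, and their genes are transcribed mostly in spermatids.

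The libraries held 15448442 to 16355720 estimated reads, and the 73 genes took 2.19% to 2.36% of them. Their summed FPKM, the deposited level per transcript length and library total, lay between 9661 in 5NC replicate 1 and 10816 in 5NC replicate 2. Prm1, a protamine that packs sperm DNA, had 10316 to 12211 FPKM. The 13 markers of multiciliated epithelium summed to 649.7 to 763 FPKM per library, most of it from 1110017D15Rik (245 to 342 FPKM), Fam183b (177.0 to 216) and Deup1 (124 to 159). Of the same list, Sntn, Mcidas and Cdhr3 reached at most 0.23, 0.06 and 0.11 FPKM and were listed at 0 in some libraries. On the first principal component of all genes tested (19.1% of the variance), the scores of 8276OV replicate 1 (−30.2), 8276OV replicate 3 (−30.3) and 3NC replicate 2 (−29.0) lay apart from those of the other libraries. In bulk RNA, fewer cells of a type and less RNA per cell cannot be told apart.

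RefSeq promoter windows on GRCm38.p6, each from 250 bases before to 50 bases after a transcription start, were found for 61 of the 73 genes, 74 windows in all, since some genes have more than 1 start. A gene was counted for a motif if any of its windows held it. Factors of the RFX family bind X-box motifs in promoters of ciliary genes, so the core GTTGCC was searched on both strands. It occurred in 21 of 61 genes (34.4%), against 3821 of the 27025 genes with a window in the same table (14.1%). The longer form GTTGCCATG, which contains the core, occurred in 3 genes (4.92%, against 0.877% of all), which were Cfap161, Cfap74 and Cfap97d2. The cAMP response element TGACGTCA, which CREM binds, occurred in 1 gene, Dnah6 (1.64%, against 2.03%). The FOXJ1 core TGTTTGTTT occurred in Cfap126 and Odf3b (3.28%, against 1.98%). GC content also differed, with a median of 55.8% in the windows of these genes and 52.7% in all windows, and its part in the shares was not tested. Only these exact letters were searched, so X-box motifs with other letters were not counted. A match is a description of letters and not of binding.

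Shown here are the windows of the 3 Dnah7 copies, whose levels are compared further on, of Cfap161, which holds the longer motif, of Tekt1, the tektin with the highest level, and of Cfap69, which was called under 1 alternative model. Capitals mark GTTGCC or its reverse complement GGCAAC, and in Cfap161 also the rest of the longer form. The windows lie at chr1:53706735-53707034 (minus strand) for Dnah7a, chr1:46066603-46066902 (plus strand) for Dnah7b, chr1:46425268-46425567 (plus strand) for Dnah7c, chr7:83794790-83795089 (minus strand) for Cfap161, chr11:72361833-72362132 (minus strand) for Tekt1 and chr5:5664183-5664482 (minus strand) for Cfap69.
Dnah7a: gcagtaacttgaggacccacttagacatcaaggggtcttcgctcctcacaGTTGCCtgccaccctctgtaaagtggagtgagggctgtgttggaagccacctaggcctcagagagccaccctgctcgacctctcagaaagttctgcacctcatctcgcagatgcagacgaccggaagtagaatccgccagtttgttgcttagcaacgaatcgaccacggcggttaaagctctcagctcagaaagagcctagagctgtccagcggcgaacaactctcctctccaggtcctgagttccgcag
Dnah7b: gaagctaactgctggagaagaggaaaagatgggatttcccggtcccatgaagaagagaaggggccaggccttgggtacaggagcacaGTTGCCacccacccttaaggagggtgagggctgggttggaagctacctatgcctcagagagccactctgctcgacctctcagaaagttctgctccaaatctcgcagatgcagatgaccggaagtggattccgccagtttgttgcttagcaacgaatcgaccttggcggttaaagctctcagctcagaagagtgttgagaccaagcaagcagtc
Dnah7c: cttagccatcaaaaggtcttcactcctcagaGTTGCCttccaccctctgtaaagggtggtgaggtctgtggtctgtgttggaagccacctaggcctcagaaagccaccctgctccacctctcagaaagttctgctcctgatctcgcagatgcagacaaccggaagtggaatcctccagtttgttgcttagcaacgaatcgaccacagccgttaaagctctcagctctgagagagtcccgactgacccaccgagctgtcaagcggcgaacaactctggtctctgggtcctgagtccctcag
Cfap161: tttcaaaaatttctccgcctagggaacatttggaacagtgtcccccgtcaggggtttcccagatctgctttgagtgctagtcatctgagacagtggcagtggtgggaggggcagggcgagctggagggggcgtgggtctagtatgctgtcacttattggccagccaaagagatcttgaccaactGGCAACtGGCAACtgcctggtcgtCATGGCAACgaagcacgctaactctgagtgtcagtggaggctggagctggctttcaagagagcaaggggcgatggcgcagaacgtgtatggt
Tekt1: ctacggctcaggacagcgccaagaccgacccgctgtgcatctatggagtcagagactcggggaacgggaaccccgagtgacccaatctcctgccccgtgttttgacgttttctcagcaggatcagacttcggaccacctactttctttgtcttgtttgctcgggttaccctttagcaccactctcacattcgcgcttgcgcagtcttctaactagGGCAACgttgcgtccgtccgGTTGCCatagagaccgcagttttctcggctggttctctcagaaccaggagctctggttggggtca
Cfap69: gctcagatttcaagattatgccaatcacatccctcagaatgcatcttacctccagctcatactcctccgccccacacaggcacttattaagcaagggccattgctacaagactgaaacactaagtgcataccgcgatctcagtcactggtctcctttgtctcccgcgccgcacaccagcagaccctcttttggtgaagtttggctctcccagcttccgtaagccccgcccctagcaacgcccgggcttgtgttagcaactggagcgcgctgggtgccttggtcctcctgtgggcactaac

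The 3 Dnah7 windows each hold 1 core. They also share a run of 29 bases, ccagtttgttgcttagcaacgaatcgacc, the longest found in all 3. That shared run holds gttgct, which differs from the core only in its last letter, followed closely by its reverse complement agcaac. These letters were not searched and are not marked. Cfap161 holds 3 cores. The window shown for Tekt1 holds 2, and the window of its other start (chr11:72361247-72361546), which is not printed, holds 0. The letters GTTGCC are not in the window of Cfap69.

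Most of the genes were among the well expressed ones of these testes. Of the 73, 67 had a mean of at least 1 FPKM over the 12 libraries, 62 at least 10 and 23 at least 100, and 65 lay above 6.19 FPKM, the median of all genes tested. The 10 highest held 66.3% of the summed FPKM. They were Odf2 (mean 1845 FPKM), Odf1 (1420), Rsph1 (998), Akap4 (852), Cfap206 (404), Akap3 (354), Cfap36 (333), Tekt1 (257), Rsph3a (221) and Odf4 (209).

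**Figure D1:**
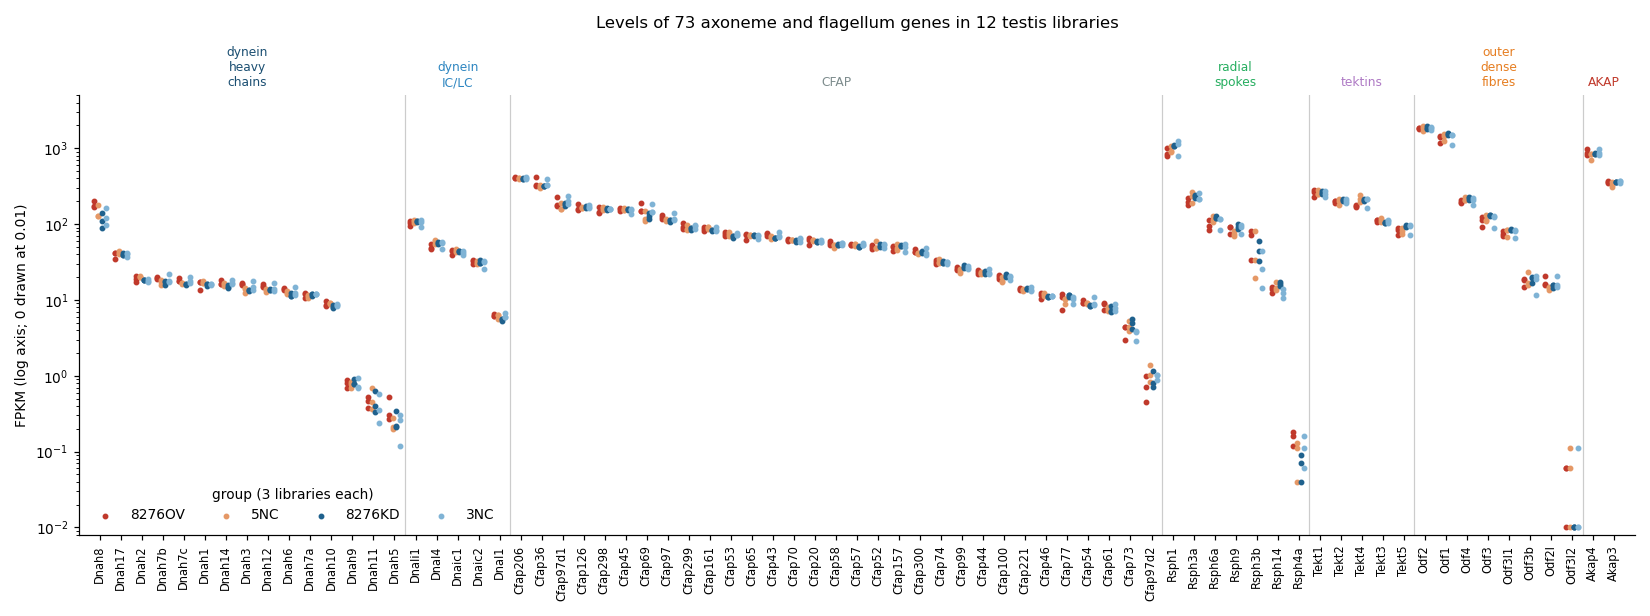
Level of each of the 73 genes in the 12 libraries, in FPKM on a log axis, 1 point per library, coloured by group and ordered by mean within each class; values of 0 are drawn at 0.01. Levels span from Odf2 (mean 1845 FPKM) to Odf3l2 (0.033 FPKM), and for nearly all genes the 4 groups lie on top of each other.

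Dynein heavy chains are the motor subunits of the arms. Dnah8, an outer arm heavy chain of sperm (gene 13417, chromosome 17, 30626935 to 30875762), was the highest of the 15, with a mean of 141 FPKM. Dnah17, the other outer arm heavy chain of sperm, followed with 40.3 FPKM. The inner arm chains Dnah1, Dnah2, Dnah3, Dnah6, Dnah7a, Dnah7b, Dnah7c, Dnah10 and Dnah12, together with Dnah14, lay between 8.64 FPKM (Dnah10) and 18.9 FPKM (Dnah2). The heavy chains that build outer arms in airway cilia were near the bottom of the scale. Dnah9 had 0.70 to 0.93 FPKM, Dnah11 had 0.24 to 0.70 FPKM and Dnah5 had 0.12 to 0.52 FPKM across the 12 libraries. These 3 were still read from 134, 60.5 and 65.1 reads per library on average. The intermediate and light chains, which anchor and regulate the motors, ran from Dnali1, an inner arm light chain, at 106 FPKM to Dnal1, an outer arm light chain, at 6.04 FPKM. Dnaic1 and Dnaic2, the outer arm intermediate chains, had 43.4 and 31.1 FPKM.

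Radial spoke genes showed a similar split between sperm and airway forms. Rsph1, a spoke head protein, had 998 FPKM. Rsph6a, the spoke head protein of sperm, had 110 FPKM, whereas its paralogue Rsph4a, known from airway cilia, had 0.04 to 0.18 FPKM and 70 reads in all 12 libraries together. Rsph9, another head protein, had 85.3 FPKM. The 5 tektins lay within a narrow range, from Tekt5 at 86.3 FPKM to Tekt1 at 257 FPKM. Among outer dense fibre genes, Odf2 and Odf1, which encode main fibre proteins, had 1845 and 1420 FPKM, Odf4 had 209 and Odf3 had 119. Odf3l2 had 7 reads in all and was listed at 0 in 7 of the 12 libraries. Akap4, the main fibrous sheath protein, lies on chromosome X (7067515 to 7078609) and had 852 FPKM, and Akap3, its partner in the sheath, had 354 FPKM.

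The CFAP genes, a family by name rather than by function, ranged from Cfap206, a radial spoke protein, at 404 FPKM to Cfap97d2 at 0.917 FPKM. Their median was 54.1 FPKM. Cfap126, Cfap45, Cfap161 and Cfap52, which bind the inside of the doublet wall, had 167, 155, 86.2 and 51.4 FPKM. Cfap65, Cfap74, Cfap221, Cfap46 and Cfap54, known from the central pair, had 70.2, 31.5, 13.8, 11.3 and 9.06 FPKM, so the levels of the 2 sets overlapped. Cfap43 and Cfap44, which tether inner arm dynein, had 69.7 and 23.1 FPKM. Cfap100 and Cfap73, known as a pair of inner arm regulators, had 19.8 and 4.20 FPKM. Cfap298 and Cfap300, which act in the assembly of dynein arms, had 158 and 42.9 FPKM.

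The genes were steady from library to library. The median coefficient of variation over the 12 libraries was 7.40%, and Cfap206 had the lowest, at 2.47%. Among genes over 10 FPKM the exceptions were Rsph3b at 51.3% and Dnah8 at 25.4%. Rsph3a and Rsph3b are near-identical copies of a spoke stalk gene on chromosome 17, and their expected counts were not whole numbers in all 12 libraries, as happens where reads match more than 1 gene. Rsph3b had 72.9, 80.1 and 33.6 FPKM in 8276OV, 80.6, 19.3 and 33.9 in 5NC, 59.3, 33.1 and 43.9 in 8276KD, and 43.8, 25.5 and 14.4 in 3NC. Its libraries differed most within groups, and all groups overlapped. In normalised CPM, counts per TMM-scaled library size, Rsph3b made up between 4.36% (3NC replicate 3) and 25.5% (5NC replicate 1) of the sum of both copies. The sum itself varied by a coefficient of 8.25%, against 12.9% for Rsph3a and 50.2% for Rsph3b on the same scale. The value of either copy is therefore uncertain. Counts were also not whole in 12 libraries for Dnah7a, Dnah7c, Dnah11 and Cfap43, and in 11 for Dnah7b and Cfap36. They were not whole in 5 libraries for Cfap157 and in 2 for Odf2l.

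Overexpression of lncRNA8276 was compared with 5NC to ask which genes respond to more of it, and none of the axoneme and tail genes passed the test. The test was edgeR's quasi-likelihood test with Benjamini-Hochberg adjustment over the 16320 genes tested, at an adjusted p under 0.05. It covered 71 of the 73 genes (Rsph4a and Odf3l2 had too few reads) and called 0 of them, against 0.0% of all genes. DESeq2 and limma called 0 of them as well. At an unadjusted p under 0.05 there were 8 of 71, 6 higher and 2 lower, where all genes gave 10.4%. The median log2 fold change was 0.024, against −0.0020 for all genes. It was −0.032 without 5NC replicate 1 and 0.077 without 5NC replicate 2. For 60 of the 71 the 95% interval lay within 0.5 log2 units of no change, and for 69 within 1.

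Several inner arm heavy chains had higher values in every 8276OV library than in every 5NC library, by small amounts. Dnah3 (gene region on chromosome 7, 119921332 to 120095297) had 205, 197 and 215 normalised CPM in 8276OV, against 147, 179 and 184 in 5NC. The groups did not overlap, and the log2 fold change was 0.27 ± 0.10 (SE, edgeR adjusted p = 0.419). Dnah12 had 191, 190 and 208 normalised CPM in 8276OV, against 164, 165 and 179 in 5NC, a log2 fold change of 0.21 ± 0.08 (edgeR adjusted p = 0.437). All 3 libraries of 8276OV again lay above those of 5NC. The copies Dnah7b and Dnah7c gave 0.22 ± 0.09 and 0.18 ± 0.07, and Dnah6 gave 0.16 ± 0.08, each without overlap. Summed over Dnah7a, Dnah7b and Dnah7c, which share reads, there were 506, 525 and 550 normalised CPM in 8276OV and 453, 472 and 477 in 5NC. Dnah8 had 2748, 2366 and 2321 normalised CPM in 8276OV, against 2318, 1737 and 1718 in 5NC. Its lowest 8276OV value lay just above the highest 5NC value, and the log2 fold change was 0.37 ± 0.20 (edgeR adjusted p = 0.521). In FPKM the groups of Dnah8 overlapped, with 202, 174 and 170 in 8276OV against 180, 126 and 127 in 5NC. In the other control, 3NC, Dnah3 had 186, 222 and 175 normalised CPM. Dnah12 had 176, 209 and 168 there, and Dnah7b 187, 236 and 188. These genes, Dnah6 and Dnah7c thus overlapped between 8276OV and 3NC, whereas Dnah8 did not (1312, 2188 and 1635 in 3NC).

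In the other classes, Odf2l, an Odf2-like gene known from the centriole, had 42.9, 41.7 and 53.6 normalised CPM in 8276OV, against 38.1, 36.5 and 39.1 in 5NC (log2 fold change 0.28 ± 0.12, edgeR adjusted p = 0.444). Tekt4 lay the other way, with 229, 226 and 224 normalised CPM in 8276OV, against 241, 320 and 284 in 5NC. Its groups did not overlap, and the log2 fold change was −0.32 ± 0.11 (edgeR adjusted p = 0.413). Dnal4, a dynein light chain, had 64.6, 74.7 and 66.7 normalised CPM in 8276OV and 78.8, 83.6 and 75.7 in 5NC (log2 fold change −0.21 ± 0.10, edgeR adjusted p = 0.469). In all, 11 of the 71 genes (15.5%) had groups that did not overlap, 9 higher and 2 lower, against 15.2% of all genes tested. This share is near the background. Between 8276OV and 3NC, the genes Odf2l, Tekt4 and Dnal4 all overlapped. In 3NC, Odf2l had 39.9, 53.5 and 41.7 normalised CPM, Tekt4 281, 214 and 287, and Dnal4 78.2, 62.8 and 81.4.

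Cfap69, a protein needed for sperm tail assembly in mouse (gene region on chromosome 5, 5579278 to 5664232), was the gene whose call depended on the model. It had 472, 483 and 608 normalised CPM in 8276OV, against 329, 381 and 481 in 5NC. Within each replicate number the 8276OV library was the higher, but the groups overlapped. Libraries of the same number deviated together in these 2 groups (correlations of 0.16, 0.15 and 0.11 over all genes). A fit of 8276OV and 5NC alone with the replicate number as a block called 215 genes (132 higher, 83 lower), Cfap69 among them and no other of the 71. There its log2 fold change was 0.39 ± 0.10 (edgeR adjusted p = 0.0234). With the block in the fit of all 4 groups, 0 genes were called. Against 3NC, the log2 fold change of Cfap69 in 8276OV was 0.03 ± 0.14.

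**Figure D2:**
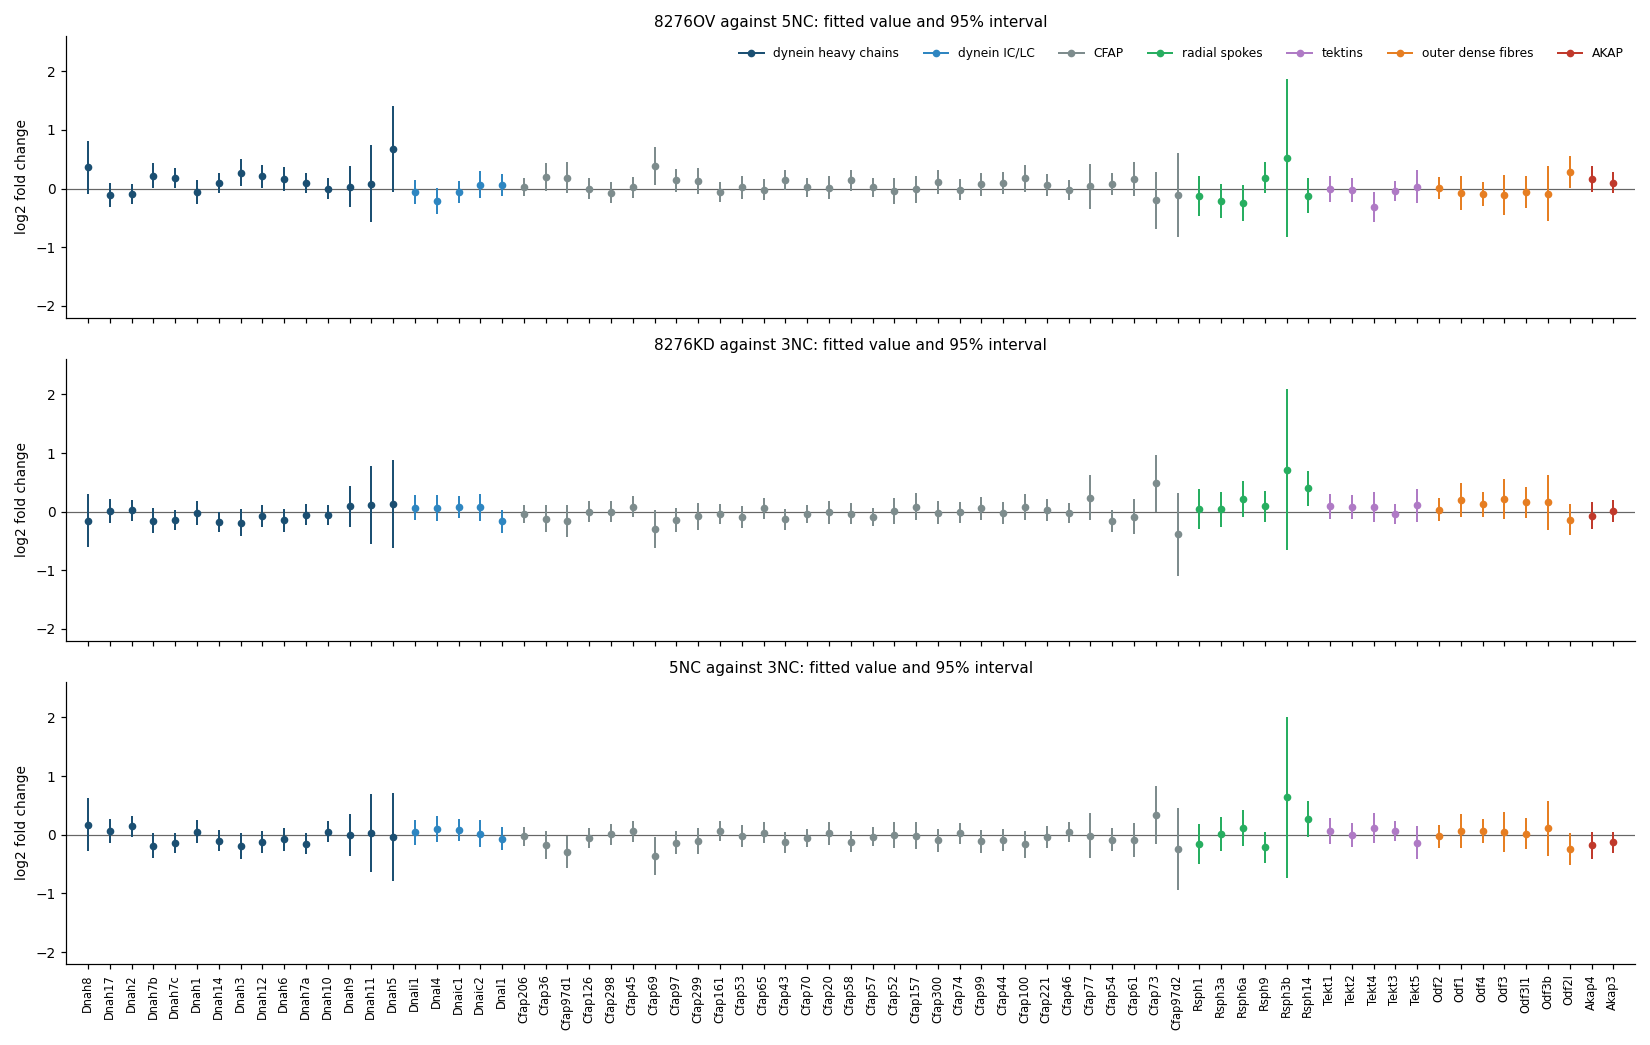
Fitted log2 fold change with its 95% interval for the 71 tested genes in 8276OV against 5NC (top), 8276KD against 3NC (middle) and 5NC against 3NC (bottom), coloured by class. Most intervals are narrow and include 0; those of Dnah5, Dnah11, Rsph3b, Cfap73 and Cfap97d2 are wide.

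Knockdown of lncRNA8276 was compared with 3NC to ask which genes respond to less of it. Again edgeR called 0 of the 71 genes, where all genes gave 29 calls (0.178%), and DESeq2 and limma called 0. At an unadjusted p under 0.05 there were 3 of 71 (2 higher, 1 lower), against 6.0% of all genes. The median log2 fold change was −0.00050, against −0.0021 for all genes, and 59 of the 71 intervals lay within 0.5 log2 units of no change. Groups without overlap were more frequent, with 20 of 71 (28.2%), 9 higher and 11 lower, against 16.5% of all genes. This difference in shares was not tested.

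Of the genes with higher values in 8276KD, Rsph14, a radial spoke protein, had 20.3, 17.03 and 18.9 normalised CPM, against 12.7, 14.2 and 15.9 in 3NC. Its groups did not overlap, and the log2 fold change was 0.40 ± 0.13 (edgeR adjusted p = 0.646). Cfap73 gave 0.48 ± 0.22 from 52.1 reads per library. Rsph6a had 257, 245 and 267 normalised CPM in 8276KD, against 244, 173 and 243 in 3NC (log2 fold change 0.22 ± 0.14, edgeR adjusted p = 0.764). Odf1 had 1477, 1509 and 1566 normalised CPM in 8276KD, against 1452, 1067 and 1456 in 3NC (log2 fold change 0.20 ± 0.13, edgeR adjusted p = 0.764). In both Rsph6a and Odf1 the lowest library was 3NC replicate 2, and the other 3NC libraries lay close to 8276KD. Odf3, Odf3l1, Cfap77 and Cfap45 were also without overlap, at 0.22 ± 0.15, 0.16 ± 0.12, 0.24 ± 0.17 and 0.09 ± 0.07.

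Of the genes with lower values in 8276KD, Cfap69 had 418, 378 and 455 normalised CPM, against 467, 591 and 473 in 3NC, a log2 fold change of −0.29 ± 0.14 (edgeR adjusted p = 0.764). Dnah3 had 173, 173 and 166 normalised CPM in 8276KD, against 186, 222 and 175 in 3NC, a log2 fold change of −0.19 ± 0.10 (edgeR adjusted p = 0.764). Here too 3NC replicate 2 was the highest library. Dnah14 and Dnah7c gave −0.17 ± 0.07 and −0.14 ± 0.07, Dnal1 gave −0.16 ± 0.08, and Cfap54, Cfap43 and Cfap97 gave −0.16 ± 0.08, −0.13 ± 0.07 and −0.14 ± 0.08, all without overlap. With 5NC as the control of 8276KD, Cfap69, Dnah3 and Dnah7c were not below 0, at 0.07 ± 0.14, 0.0063 ± 0.10 and 0.0038 ± 0.07. The Dnah7 copies together had 494, 490 and 462 normalised CPM in 8276KD and 502, 569 and 500 in 3NC.

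**Figure D3:**
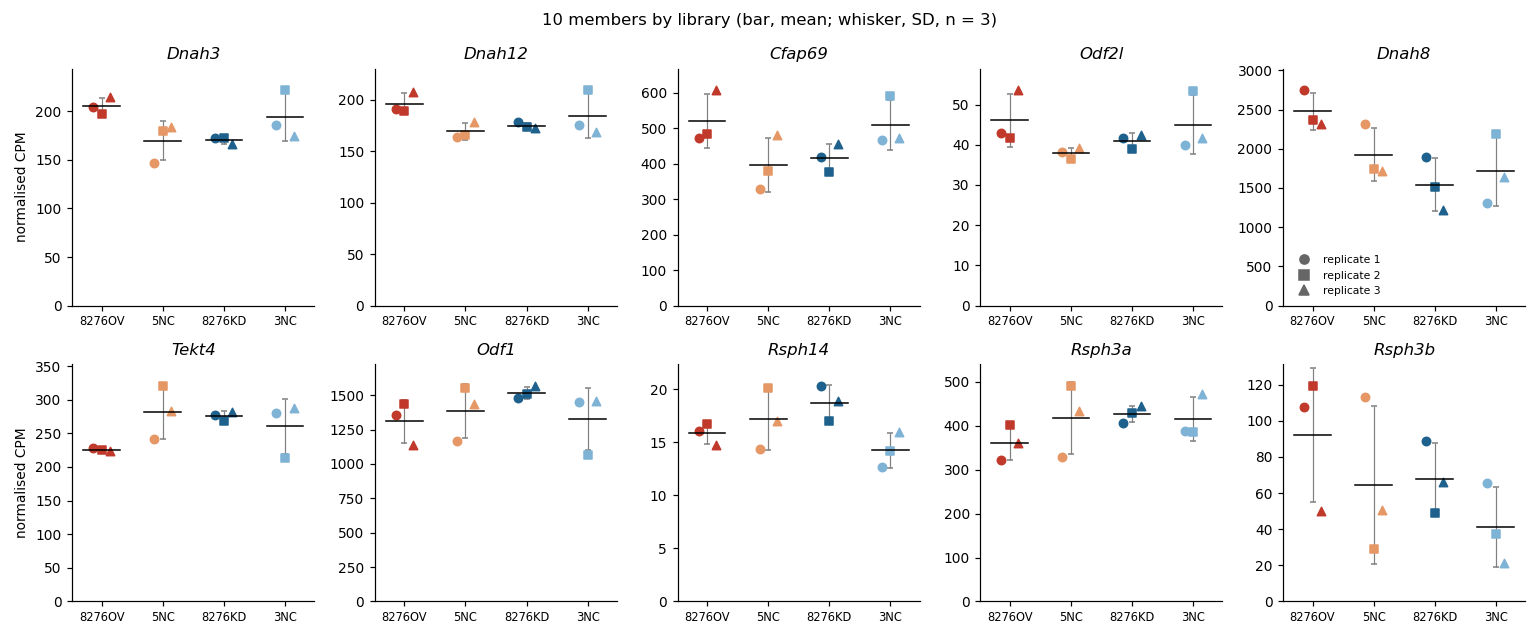
Normalised CPM by library for 10 genes, with groups in the order 8276OV, 5NC, 8276KD, 3NC, marker shape giving the replicate number, the bar the mean and the whisker the SD (n = 3). Dnah3 and Dnah12 lie higher in all 8276OV libraries than in 5NC, 3NC replicate 2 is apart from its group for Dnah3, Cfap69, Odf2l, Tekt4 and Odf1, and Rsph3b scatters within every group.

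The groups taken as controls were also compared with each other, which shows how far they lie apart. Whether lncRNA8276 was unchanged in both was not checked. With 5NC over 3NC, edgeR called 59 genes (0.362%) and 0 of the 71, as did DESeq2 and limma for the 71. At an unadjusted p under 0.05 there were 2 of 71, Cfap69 and Cfap97d1, both lower in 5NC, against 12.1% of all genes. Groups did not overlap for 4 of 71 (5.63%), against 16.9% of all genes: Dnah2 at a log2 fold change of 0.14 ± 0.08, and Odf2l, Dnah7a and Cfap36 at −0.25 ± 0.12, −0.15 ± 0.07 and −0.17 ± 0.10. Since the 5NC and 3NC libraries are those of the comparisons above, these values are not independent of them.

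The 8276OV effect minus the 8276KD effect tests whether the 2 manipulations moved a gene differently, each from its inferred control. A gap between the controls therefore enters it directly. edgeR called 0 of the 71 genes, against 10 of all genes (0.0613%), and so did DESeq2 and limma. At an unadjusted p under 0.05 there were 15 of 71, 11 with a positive and 4 with a negative difference, against 15.7% of all genes. Cfap69 had a difference of 0.68 ± 0.20 on the log2 scale (edgeR adjusted p = 0.257), Dnah3 one of 0.46 ± 0.14 (edgeR adjusted p = 0.257), and Dnah7b and Dnah7c 0.38 ± 0.13 and 0.32 ± 0.10. For Cfap69 the log2 fold change of 5NC against 3NC was −0.36, a large part of its difference. With the controls exchanged, both fold changes of Cfap69 were smaller than their SE, as given above. Rsph14, Rsph6a, Tekt4 and Cfap73 were negative, at −0.51 ± 0.19, −0.46 ± 0.19, −0.40 ± 0.16 and −0.68 ± 0.31. Such a difference adds up the spread of all 4 group means, so the interval is wider. The median SE was 0.13, against 0.09 in 8276OV against 5NC, and 39 of 71 intervals lay within 0.5 log2 units of 0.

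Fitted values were next summarised by class. In 8276OV against 5NC, 11 of 15 dynein heavy chains had a fitted fold change above 0, with a median of 0.10, whereas radial spokes (median −0.12), tektins (−0.02) and outer dense fibres (−0.08) had medians below 0. In 8276KD against 3NC, 5 of 15 heavy chains were above 0 (median −0.06), while all 6 tested radial spoke genes and 6 of 7 outer dense fibre genes were above 0 (medians 0.16 and 0.16). With 5NC as the control of 8276KD, 8 of 15 heavy chains (median 0.0038) and 19 of 31 CFAP genes were above 0, against 9 of 31 CFAP genes with 3NC, while all 6 radial spoke genes and all 7 outer dense fibre genes were above 0. With 3NC as the control of 8276OV, 11 of 15 heavy chains were above 0 (median 0.05). The controls alone, 5NC against 3NC, gave 6 of 15 heavy chains (median −0.04) and 8 of 31 CFAP genes (−0.06) above 0. They also gave 4 of 6 radial spoke genes (0.06) and 5 of 7 outer dense fibre genes (0.05) above 0. Summed over the 15 heavy chains, levels were 402, 372 and 362 FPKM in 8276OV, against 367, 317 and 320 in 5NC, and 325, 294 and 266 FPKM in 8276KD, against 285, 363 and 307 in 3NC. Both pairs of groups overlapped, and Dnah8 made up most of the difference from library to library. Summed radial spoke levels were 1296, 1504 and 1198 FPKM in 8276OV, against 1395, 1561 and 1380 in 5NC, and 1578, 1582 and 1634 FPKM in 8276KD, against 1719, 1203 and 1642 in 3NC. Here 3NC replicate 2 and 8276OV replicate 3 were the lowest of the 12. The tested CFAP genes had medians of 0.03 and −0.02. Akap3 and Akap4 had 0.10 ± 0.07 and 0.16 ± 0.11 in 8276OV against 5NC, and 0.01 and −0.07 in 8276KD against 3NC.

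These classes also differ in transcript length, and long and short genes of the whole table lay apart in the same directions. Of the 71 tested genes, 21 had transcripts of at least 5000 bases, among them all 15 heavy chains, and 32 were under 2000 bases, such as most tektin and outer dense fibre genes. In 8276OV against 5NC the median log2 fold change was 0.09 for the long ones and −0.02 for the short ones, where all long and all short genes had 0.06 and −0.05. In 8276KD against 3NC it was −0.06 for the long ones and 0.07 for the short ones, where all genes had −0.06 and 0.03. Over the 71 genes Spearman's rho of fold change on length was 0.36 and −0.46 in these comparisons, against 0.16 and −0.16 over all genes tested, a description of genes that share libraries. The controls also lay apart by length. In 5NC against 3NC the medians of long and short members were −0.07 and 0.01, where all genes had −0.04 and 0.05.

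**Figure D4:**
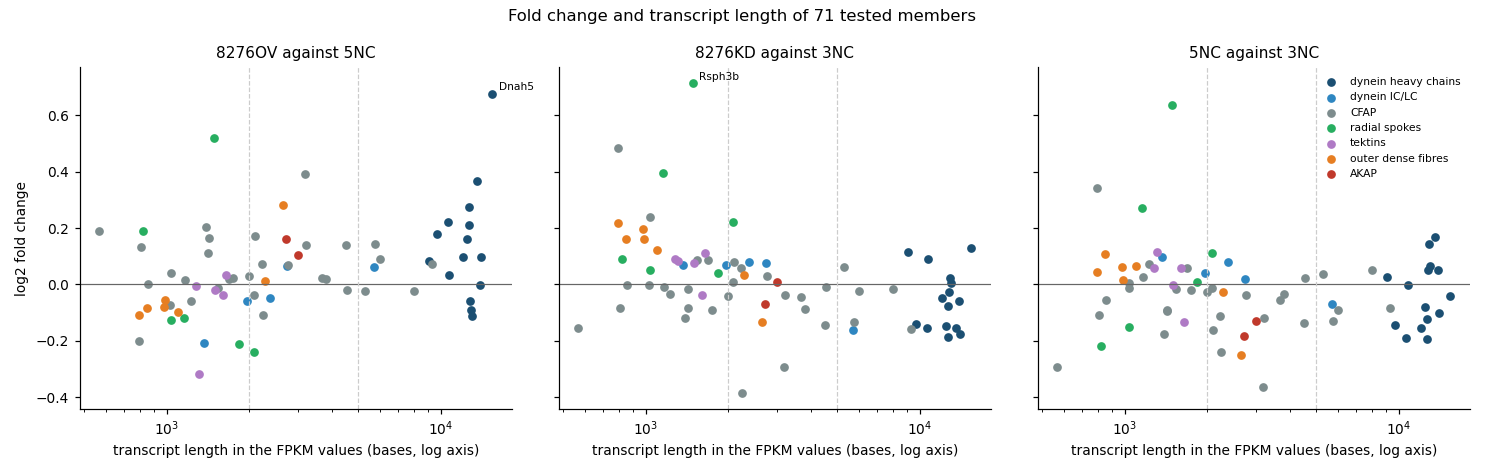
Fitted log2 fold change (vertical axis) against transcript length in bases (log axis) for the 71 tested genes in 3 comparisons, coloured by class, with dashed lines at 2000 and 5000 bases. Dynein heavy chains lie at the right and are mostly above 0 in 8276OV against 5NC and mostly below 0 in 8276KD against 3NC. In 5NC against 3NC, 9 of 15 are below 0.

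The difference was also taken by library. The median log2 deviation of long genes minus that of short genes was 0.35 in 3NC replicate 2 and 0.28 in 8276OV replicate 3 among the 71, and 0.17 and 0.09 among all genes. In the other 10 libraries it was −0.13 to 0.08 among the 71 and −0.09 to 0.08 among all genes, so over all genes 8276OV replicate 3 lay close to the highest of these, 8276OV replicate 1. Without 3NC replicate 2 the medians of long and short genes in 8276KD against 3NC were −0.04 and −0.01, and without 8276OV replicate 3 those in 8276OV against 5NC were 0.04 and −0.00028. With an offset for transcript length in the fit, the median of the heavy chains was 0.02 in 8276OV against 5NC and 0.02 in 8276KD against 3NC, and 0 of the 71 genes were called in either. Their median for the difference of effects was 0.11 with the offset and 0.27 without it. The offset was estimated from the same libraries and removes trends with length, and the heavy chains are all long. A smaller shift of their median is therefore largely built in. The part of transcript length in the class values was not tested further.

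**Figure D5:**
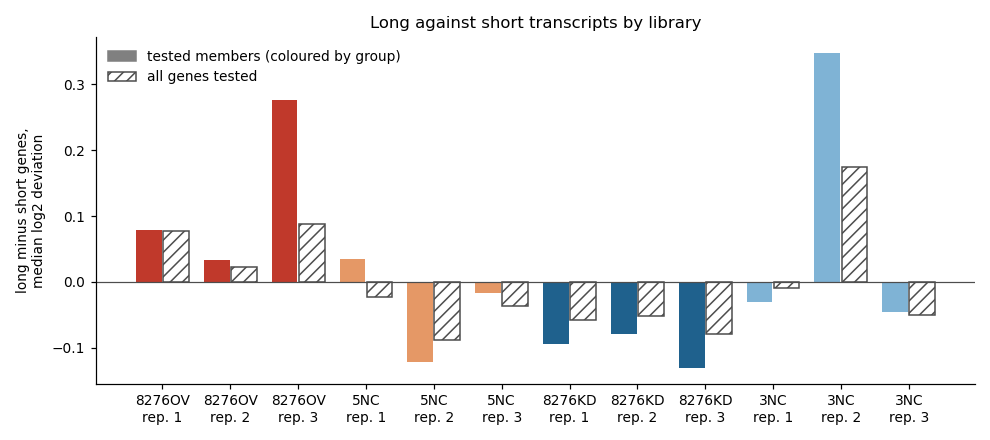
Median log2 deviation of long genes (at least 5000 bases) minus that of short genes (under 2000 bases) in each of the 12 libraries, for the tested axoneme and tail genes (filled bars, coloured by group) and for all genes tested (hatched bars). Filled bars of 3NC replicate 2 (0.35) and 8276OV replicate 3 (0.28) stand above the other filled bars; of the hatched bars only that of 3NC replicate 2 (0.17) does.

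No partner of these genes passed the test either. From lists of known partners, edgeR called 0 of 16 assembly factors, 0 of 8 docking and ruler genes, 0 of 11 genes of the nexin-dynein regulatory complex, 0 of 28 central pair and other axoneme genes, 0 of 21 fibrous sheath and annulus partners and 0 of 29 intraflagellar transport genes, in each of the 4 comparisons. Their medians in 8276OV against 5NC lay between −0.07 (assembly factors) and 0.05 (sheath partners), and in 8276KD against 3NC between −0.02 (intraflagellar transport) and 0.04 (docking). Of the 14 tested transcription factors of cilia and spermatid genes 0 were called. Rfx2, a regulator of ciliary genes in spermatids, had 77.2 to 111 FPKM, Crem, a switch of spermatid transcription, 79.3 to 85.6 FPKM, and Foxj1, the regulator of motile ciliogenesis, 30.1 to 45.2 FPKM.

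Cell type markers give the setting of these values. Among germ cell markers, 0 of 15 spermatocyte, 0 of 18 round spermatid and 0 of 15 elongating spermatid genes were called in any comparison. Elongating spermatid markers had a median of −0.05 in 8276OV against 5NC (3 of 15 above 0) and of 0.12 in 8276KD against 3NC (13 of 15 above 0). Of the macrophage and leukocyte markers 0 of 15 were called, but all 15 had a fold change above 0 in 8276OV against 5NC (median 0.71). Their summed levels were 361, 219 and 150 FPKM in 8276OV, against 167, 113 and 91.8 in 5NC, so replicate 1 was the highest of each group. All 11 Leydig cell markers were below 0 in 8276OV against 5NC (median −0.46, 0 called). Their sums were 1953 to 2430 FPKM in 8276OV and 2277 to 4628 in 5NC, where replicate 1 was the highest. In that same library 28 of the 71 genes (39.4%) had their lowest value of all 12, and 0 had their highest. Of all genes, 33.4% had either their lowest or their highest value there. That share does not separate lowest from highest values, so it is no background for the 28 genes. Of the Sertoli markers 15 of 17 were below 0 in 8276OV against 5NC (median −0.20, 0 called). In 5NC against 3NC, 16 of the 17 were above 0 (median 0.32). Their sums in 5NC were 1375, 885 and 884 FPKM, with replicate 1 the highest. Among them, Kitl was called lower in 8276KD than in 3NC (log2 fold change −0.94 ± 0.15, edgeR adjusted p = 0.0229) and lower in 5NC than in 3NC (−0.80 ± 0.15, edgeR adjusted p = 0.0390). Of the 6 tested epididymis markers, Spink8 had 6.66, 29.4 and 23.4 FPKM in 5NC, against 0.81, 1.14 and 2.37 in 3NC, and was called higher in 5NC (log2 fold change 3.79 ± 0.63, edgeR adjusted p = 0.0333). Of the 8 tested multiciliated epithelium markers 0 were called. The part of these cells in the values of the axoneme and tail genes was not tested.

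The exons of 23 of the 73 genes overlap exons of another gene, in each case on the opposite strand. Strandedness of the libraries was not stated, so reads from such pairs may not be separated. The 23 genes are Cfap52, Cfap61, Cfap65, Cfap73, Cfap74, Cfap157, Cfap298, Dnah1, Dnah2, Dnah3, Dnah6, Dnah8, Dnah9, Dnah10, Dnah11, Dnah14, Dnah17, Dnaic1, Dnali1, Odf2, Rsph3a, Rsph3b and Tekt2.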

How the data were processed

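RNA sequencing of F0 mouse testes gave 12 libraries, 3 per group, grouped by the treatment label with replicate numbers from the titles. The authors deposited expected counts per gene (unnormalised, per the file headers), of which 88.0% were whole within 1e-06. For testing, counts were rounded to whole numbers. A second set of columns that the authors deposited, normalised by them, names no unit and was taken as FPKM, because over 5204 genes with more than 500 reads the value per read followed the inverse library total with a median deviation of 0.314%. The genome build was mm10, per the submitters' processing notes; neither aligner, counting program nor annotation is given in the sources used here. The table also holds 18 per-sample columns that match no sample of the series and were not used.

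Testing used edgeR 4.0.16 under R 4.3.3 (quasi-likelihood, robust, TMM, filterByExpr with minimum count 10 and minimum total 15) in 1 fit of the 4 groups without covariates, which left 16320 genes with a common biological coefficient of variation of 0.13. Calls were made where the Benjamini-Hochberg adjusted p was under 0.05. The SE is the absolute log2 fold change divided by the square root of F, and intervals are at 95%. The deposited estimated reads are not molecules counted by identifiers, so precision rests on the spread between libraries, 3 per group. The fit estimated this spread over all 4 groups and, in part, over genes. The procedure was checked on simulated counts with larger fold changes than most of those given here. That check does not show how well small changes are found. Alternatives were the other control or both controls, DESeq2 1.42.0, other size factors and filters, limma 3.58.1 on log2(FPKM + 1) or log2(FPKM + 0.1), a replicate block and leaving out libraries. An offset for transcript length was added after the data were seen. To see if same-numbered libraries pair, their deviations from the group means were correlated over all genes. For 8276OV with 5NC the values were 0.16, 0.15 and 0.11, taken as pairing and inferred from the same data. For 8276KD with 3NC they were 0.01, 0.03 and 0.06, and for 5NC with 3NC −0.03, 0.01 and 0.02.

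The members and the lists of partners and markers were chosen with earlier results of these data known, so counts over them are descriptions. The text names members called in any comparison, up to 8 each way per comparison by smallest p among those whose groups do not overlap (4 each way for the difference of effects), the 10 of highest mean FPKM, and the highest and lowest of each class. Cfap97d1, Rsph3b and several genes named for their level or role were chosen after their values were seen. From the lists, fewer genes are named than the rule allows. Exon overlaps are from GENCODE M21 basic.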

Additional observations from a re-analysis of the deposited data

How the results depend on the processing

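Of 910 values of named members under the alternatives, 907 kept their direction and their side of the threshold. The other 3 changed sign with 5NC as the control of 8276KD, where Cfap69 had 0.071, Dnah3 0.0063 and Dnah7c 0.0038. These members were named for groups without overlap or for small p, and none was called in the main fit. The count was thus largely set by that choice and is no measure of robustness. Under no alternative was a member called, except Cfap69 in 8276OV against 5NC with the replicate block in a fit of these groups alone. The cause was not tested. Counts of called genes moved more. In 8276OV against 5NC, 0 genes became 52 with 3NC as the control, 3 with both controls, 50 with DESeq2, 215 with the replicate block in a fit of these groups alone (1 member) and 36 with 3NC replicate 2 and 8276OV replicate 3 both left out; leaving out 1 library gave 0 to 5. In 8276KD against 3NC, 29 genes became 8 with 5NC as the control, 3 with both controls, 71 with DESeq2, 16 with limma on log2(FPKM + 0.1), 77 with the replicate block and 18 without both libraries; leaving out 1 library gave 10 to 34. In 5NC against 3NC, 59 genes became 148 with DESeq2, 32 and 31 with limma at pseudocounts of 1 and 0.1, and 94 with the replicate block; leaving out 1 library gave 16 to 76. The numbers of these last pairs did not pair libraries. For the difference of effects, 10 genes became 96 with DESeq2 and 6 with limma at 0.1; leaving out 1 library gave 4 to 23. The median over members in 8276OV against 5NC, 0.024, lay between −0.032 and 0.077 on leaving out 1 library. For the difference of effects it was 0.0026, between −0.026 and 0.058 on leaving out 1 library, and 0.057 without both. The cause was not tested. With 3 libraries a group and a median SE of 0.09 on the log2 scale, small changes could not be told from none. Values above 0.2 were not called either. In 8276OV against 5NC, 13 of the 71 genes were beyond 0.2 in either direction and 0 were called. In 8276KD against 3NC, Rsph14 at 0.40 had an edgeR adjusted p of 0.646.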
